A study of Arabidopsis thaliana with 6 samples.

Results

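The floral organ identity genes of Arabidopsis thaliana examined here were 10 MADS-box genes, AP1, FUL, AP3, PI, AG, SHP1, SEP1, SEP2, SEP3 and SEP4. They were chosen by name and gene identifier from the 32548 genes of the expression values. No measured level entered the rule, but earlier results of these data were known when the genes were chosen. MADS-box genes encode transcription factors that bind DNA as dimers and assemble into complexes of 4 proteins. In the textbook model of the flower, the A-function gene AP1 acts in sepals and petals, the B-function genes AP3 and PI in petals and stamens, the C-function gene AG in stamens and carpels, and the SEP (E-function) proteins join all of these complexes. In leaves most of these genes are kept silent by Polycomb-type chromatin repression, and FUL and AP1 are switched on as the shoot apex turns from making leaves to making flowers.

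RNA-seq was carried out on 20-day-old seedlings of 3 genotypes in the Col-0 background, grown on MS plates and soil in long days, with 2 libraries per genotype and 6 in all. The genotypes were the wild type, the T-DNA insertion mutant hda19, which carries a disrupted gene for the RPD3-type histone deacetylase HDA19, and the triple mutant hdip1/2/3, in which genes for the 3 HDA19-interacting proteins HDIP1, HDIP2 and HDIP3 were edited with CRISPR-Cas9, the hdip2 mutation having been brought into an hdip1/3 double mutant. Each mutant was 1 line, and the libraries were made from tissue of mixed cell types, so that fewer cells of a type and less RNA per cell cannot be told apart. The study's methods name 20-day-old plants and do not say whether roots were included. The question for these genes was whether they were transcribed at this stage and whether their levels differed between the genotypes.

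The libraries held between 43906641 and 48407739 reads on genes. HDA19 had 4298 and 4416 adjusted counts for the wild type, 2832 and 4561 in the libraries labelled hda19, and 4893 and 5206 in those labelled hdip1/2/3, so the HDA19 count did not distinguish the hda19 label, and where the T-DNA lies in the transcript is not given in the sources used here. The counts of HDIP1, HDIP2 and HDIP3 in the libraries labelled hdip1/2/3 were at 583 and 479, 399.6 and 379.6, and 744 and 591, none below both wild-type libraries, and small edits need not change a count. The genotype names below are therefore the labels of the libraries. The leaf markers RBCS1A, CAB1, LHCB2.1, RCA and CA1 had at least 10 reads in every library, as did 3 of 5 shoot meristem markers (STM, KNAT1 and CLV1), whereas 6 of 7 root markers stayed under 10 reads in every library.

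The members share the MADS box, the stretch of 180 bases that encodes the DNA-binding domain and that lies within 1 exon in all 10 genes. The boxes of FUL and AP1, of SEP2 and SEP1, and of AP3 are shown because FUL, SEP2 and AP3 were the members called lower in a mutant, while AP1 and SEP1 are the closest relatives of FUL and SEP2 among the members. They were read 5′ to 3′ on the coding strand from the RefSeq TAIR10.1 assembly, and capitals mark the 71 bases that are the same in all 10 members.
FUL: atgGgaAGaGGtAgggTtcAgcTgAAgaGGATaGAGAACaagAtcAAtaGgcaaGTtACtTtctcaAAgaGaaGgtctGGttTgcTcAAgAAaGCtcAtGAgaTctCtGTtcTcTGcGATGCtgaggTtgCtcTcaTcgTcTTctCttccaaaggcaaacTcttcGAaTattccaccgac
AP1: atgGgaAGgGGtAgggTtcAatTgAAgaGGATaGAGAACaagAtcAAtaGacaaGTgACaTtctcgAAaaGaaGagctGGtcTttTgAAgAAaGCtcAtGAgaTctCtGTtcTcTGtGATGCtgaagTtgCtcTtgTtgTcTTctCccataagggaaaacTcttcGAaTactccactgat
SEP2: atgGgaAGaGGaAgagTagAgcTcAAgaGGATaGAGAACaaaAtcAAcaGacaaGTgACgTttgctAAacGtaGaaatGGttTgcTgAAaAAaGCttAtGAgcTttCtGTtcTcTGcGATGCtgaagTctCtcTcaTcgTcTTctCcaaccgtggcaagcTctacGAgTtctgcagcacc
SEP1: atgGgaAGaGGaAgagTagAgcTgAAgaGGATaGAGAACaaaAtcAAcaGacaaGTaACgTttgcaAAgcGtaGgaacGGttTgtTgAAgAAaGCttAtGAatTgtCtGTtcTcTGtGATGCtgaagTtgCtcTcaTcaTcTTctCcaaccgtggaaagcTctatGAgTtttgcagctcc
AP3: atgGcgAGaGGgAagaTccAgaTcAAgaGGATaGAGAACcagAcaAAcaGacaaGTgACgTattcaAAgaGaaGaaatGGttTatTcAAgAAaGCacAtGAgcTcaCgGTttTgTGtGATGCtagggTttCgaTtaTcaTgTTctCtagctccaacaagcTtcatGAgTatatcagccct
The FUL box lies on the minus strand of chromosome 5 (chr5:24505834-24506013), the AP1 box on the minus strand of chromosome 1 (chr1:25985923-25986102), the SEP2 box on the minus strand of chromosome 3 (chr3:466508-466687), the SEP1 box on the minus strand of chromosome 5 (chr5:5153588-5153767), and the AP3 box on the minus strand of chromosome 3 (chr3:20120908-20121087). Identity over the box was 84.4% between FUL and AP1 and 89.4% between SEP1 and SEP2, within a range of 62.8% to 89.4% over the 45 pairs of members. The longest run of identical bases between the transcripts of any pair of members was 34 nt, shorter than the 50 nt reads that the labels give, and 0 of 45 pairs shared a run of 50 nt. Outside the members, AP1 shared a run of 56 nt with CAL, its close paralog in floral meristem identity, and CAL itself had between 0 and 7 reads per library.

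A member was taken as above background in a genotype when both libraries held at least 10 reads. In the wild type 9 of 10 members met this, all except SHP1, beside 58.6% of all genes. In hda19 it was 7 of 10, without SEP1, SEP2 and SHP1, beside 59.3% of genes, and in hdip1/2/3 it was 8 of 10, without AP3 and SEP2, beside 58.4%. AP1, FUL, AG, PI, SEP3 and SEP4 were above background in all 3 genotypes. With at least 3 reads required, 8 members met the rule in all 3 genotypes, all except AP3 and SEP2. With at least 50 reads or at least 1 RPKM required (reads per kb of transcript, scaled to 1000000 reads on genes), SEP4 alone was left in all 3 genotypes, so that the count of 6 rests on low read numbers. Genes of other stages and organs were read beside them. All 9 seed storage genes stayed under 10 reads in every library, with 0 to 12 reads summed over the list, and 8 of 13 anther and tapetum markers stayed under 10 reads, 5 of them at 0 in every library. PKSA, TKPR1 and LAP3 of the anther and tapetum list had at least 10 reads in every library, at 121 to 215 reads for PKSA, 82 to 223 for TKPR1 and 42 to 102 for LAP3. In RPKM, PKSA lay at 1.70 to 2.88 and TKPR1 at 1.55 to 4.34, above AP1, AG, AP3, PI, SHP1, SEP1, SEP2 and SEP3 in every library.

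Levels were compared between genes as RPKM. SEP4, which unlike the other SEP genes is known to be transcribed in leaves and stems as well as flowers, was the most abundant member at 11.5 and 10.7 RPKM in the wild type, and its level exceeded that of 68.1% of tested genes there. FUL followed at 2.65 and 2.22 in the wild type. The other 8 members had wild-type means between 0.0864 and 0.552 RPKM, against a median of 4.46 to 5.07 for all tested genes in the wild-type libraries. SEP4 alone made up between 62.1% and 77.3% of the summed adjusted count of the 10 members. SEP4 stood above FUL in every library. In the wild type FUL also stood above the other 8 members in both libraries, but the order among neighbours below it was within the spread of the libraries, as with AP1 at 0.473 and 0.466 beside SEP3 at 0.545 and 0.278. In hdip1/2/3 FUL was at 0.549 and 0.825, overlapping AG at 0.717 and 0.794 and SEP3 at 0.772 and 0.632.

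**Figure D1:**
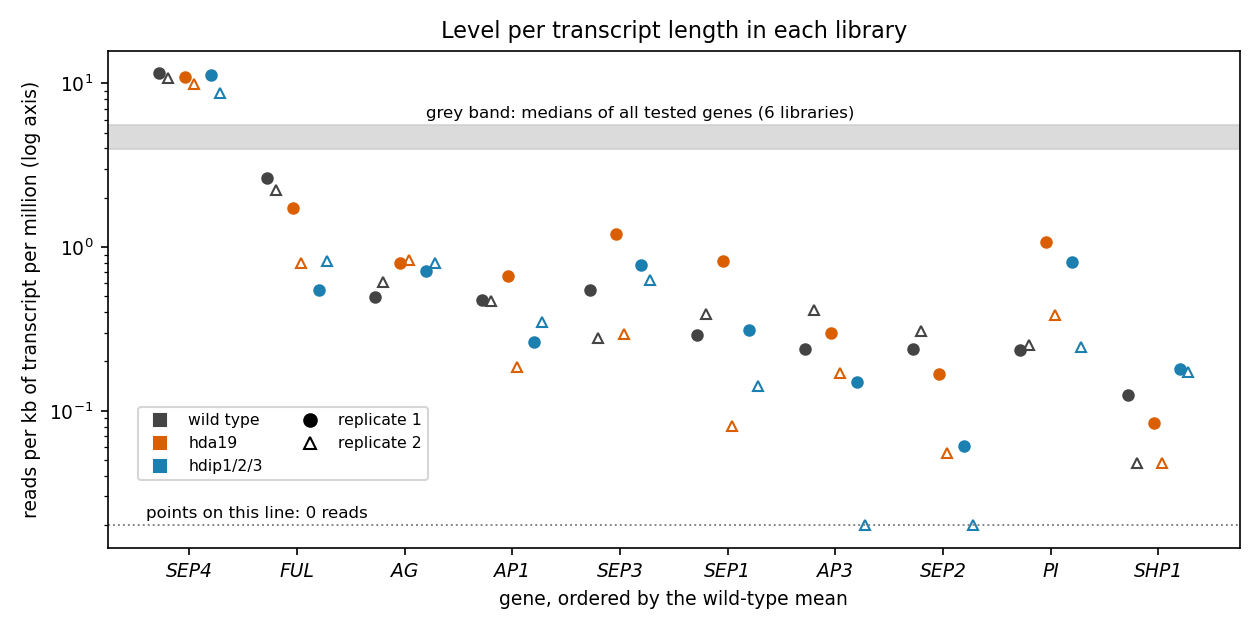
RPKM (reads per kb of transcript, scaled to 1000000 reads on genes, log axis) for the 10 members in each of the 6 libraries, ordered by the wild-type mean, with wild type in grey, hda19 in orange and hdip1/2/3 in blue, circles for replicate 1 and triangles for replicate 2. SEP4 lies above the grey band of library medians of all tested genes, all other members lie below it, and AP3 and SEP2 had 0 reads in hdip1/2/3 replicate 2.

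The comparisons between genotypes were made on the adjusted counts, values scaled to a common library size, on the log2(value + 1) scale with limma-trend over 23685 tested genes, all 10 members among them. A gene was called when its log2 fold change was beyond 1 with an unadjusted P under 0.05. At 2 libraries against 2, an exact permutation test of a single gene cannot give a two-sided p below 0.333, so each P rests on the spread that limma estimated over all genes. In hda19, 1 of 10 members was called lower, FUL, and none higher, where 6.74% of all tested genes were called, 2.09% lower and 4.65% higher. In hdip1/2/3, 3 of 10 members were called lower, FUL, AP3 and SEP2, and none higher, where 8.99% of all tested genes were called, 4.07% lower and 4.92% higher. By limma-trend with Benjamini-Hochberg adjustment over all tested genes, 0 of 10 members had an adjusted P under 0.05 in either comparison, against 2.84% and 7.17% of all tested genes. The members with an unadjusted P under 0.05, 1 in hda19 and 3 in hdip1/2/3, were those called, where 17.6% and 30.6% of all tested genes had such a P, and limma-voom on the recovered reads called the same members and gave 1 adjusted P under 0.05, that of FUL in hdip1/2/3. The median log2 fold change of the members was -0.41 in hda19 and -0.30 in hdip1/2/3, where that of all tested genes was 0 in both. The 2 wild-type libraries served in both comparisons.

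**Figure D2:**
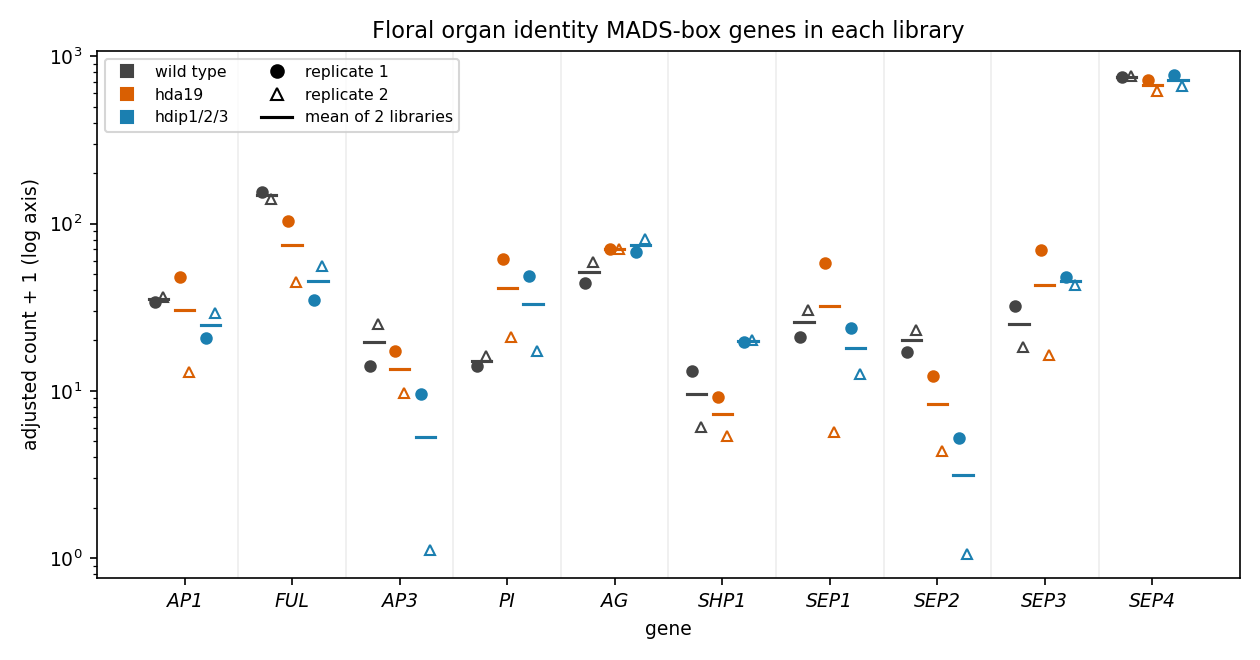
Adjusted count plus 1 (log axis) of the 10 members in the 6 libraries, grouped by gene, with wild type in grey, hda19 in orange and hdip1/2/3 in blue, circles for replicate 1, triangles for replicate 2 and a bar at the mean of the 2 libraries. FUL was at 154 and 139.6 in the wild type and at or below 102 in every mutant library, while SEP4 stayed between 619.7 and 775 in all 6.

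FUL was called lower in both mutants, and AP1, its closest relative among the members, did not pass the test. FUL (AT5G60910, chromosome 5), which promotes flowering at the shoot apex and later patterns the fruit valves, had wild-type adjusted counts of 154 and 139.6, against 102 and 43.9 for hda19 and 33.9 and 55.0 for hdip1/2/3. All 4 mutant libraries were below both wild-type libraries, and the 2 mutants overlapped each other. On the log2(value + 1) scale FUL was 2.17-fold lower in hda19 (log2 fold change -1.12, standard error 0.45, unadjusted P = 0.0383, limma-trend adjusted P = 0.248) and 3.34-fold lower in hdip1/2/3 (-1.74, standard error 0.45, unadjusted P = 0.0051, limma-trend adjusted P = 0.0569, limma-voom adjusted P = 0.0438). The direct contrast gave hda19 over hdip1/2/3 a log2 fold change of 0.62 with a standard error of 0.45 and a limma-trend unadjusted P of 0.207. The call in hda19 was lost without hda19 replicate 2 (-0.52), without wild-type replicate 1 (-1.05) or 2 (-1.19), and, at an unchanged -1.12, without hdip1/2/3 replicate 1 or 2, with a fit of the pair of genotypes alone or with no filter on low values. The call in hdip1/2/3 was lost without wild-type replicate 1 (-1.67) or 2 (-1.81) and without hdip1/2/3 replicate 1 (-1.40).

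AP1 (AT1G69120, chromosome 1), which specifies the floral meristem and its outer organs, had adjusted counts of 33.2 and 35.4 (wild type), 47.1 and 11.9 (hda19) and 19.7 and 28.1 (hdip1/2/3). The hda19 libraries lay on either side of the wild type, and both hdip1/2/3 libraries lay below it. The log2 fold changes were -0.50 in hda19 and -0.53 in hdip1/2/3, each with a standard error of 0.62. In hda19 AP1 was called lower without replicate 1 (-1.45), and its value was 0.45 without replicate 2.

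Of the B-function members, AP3 was called lower in hdip1/2/3 and PI did not pass the test. AP3 and PI encode partners that bind DNA as a pair in petals and stamens. AP3 (AT3G54340, chromosome 3) had 13.1 and 24.2 adjusted counts for the wild type, with hda19 at 16.4 and 8.73 and hdip1/2/3 at 8.52 and 0.12, which came from 13 and 24, 16 and 10, and 8 and 0 reads. Both hdip1/2/3 libraries were below both wild-type libraries, and the value of 0 reads in replicate 2 allows a level of up to 0.065 reads in 1000000. The hda19 libraries overlapped the wild type. The log2 fold change of AP3 in hdip1/2/3 was -2.53 with a standard error of 0.98 (unadjusted P = 0.0331, limma-trend adjusted P = 0.13). It was -0.99 and no longer called without hdip1/2/3 replicate 2, and the call was also lost without wild-type replicate 1 (-2.95) or 2 (-2.11), without hda19 replicate 1 or 2, with the pair of genotypes alone or with no filter (each -2.53), and with a pseudocount of 0.1 (-3.70). Without hdip1/2/3 replicate 1 it was -4.07 and stayed called.

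PI (AT5G20240, chromosome 5) had wild-type adjusted counts of 13.1 and 15.2, against 60.5 and 19.9 for hda19 and 47.4 and 16.4 for hdip1/2/3. All 4 mutant libraries were above both wild-type libraries, and in each mutant replicate 1 was far above replicate 2. The log2 fold changes were 1.25 in hda19 (standard error 0.67, limma-trend unadjusted P = 0.101) and 0.94 in hdip1/2/3 (standard error 0.67, limma-trend unadjusted P = 0.2), neither past the call rule.

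The C-function member AG (AT4G18960, chromosome 4), which specifies stamens and carpels and ends the activity of the floral meristem, had adjusted counts of 43.3 and 57.6 (wild type), 69.9 and 69.3 (hda19) and 66.4 and 80.0 (hdip1/2/3). Every mutant library was above both wild-type libraries, by a small margin. The log2 fold changes were 0.47 and 0.54, each with a standard error of 0.32, with limma-trend unadjusted P of 0.177 and 0.131. SHP1 (AT3G58780, chromosome 3), a close relative of AG that acts in ovules and in the margins along which the fruit opens, was the lowest member in the wild type. The wild-type libraries stood at adjusted counts of 12.1 and 5.07, those of hda19 at 8.20 and 4.35, and those of hdip1/2/3 at 18.5 and 19.2. Both hdip1/2/3 libraries were above the other 4, with a log2 fold change against the wild type of 1.16 (standard error 0.58, limma-trend unadjusted P = 0.0846), and it was called higher without wild-type replicate 1 (1.71). SHP2, its nearest paralog, had 0 or 1 read in every library and was not tested.

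Of the E-function members, SEP2 was called lower in hdip1/2/3 and the other 3 did not pass the test in either mutant. SEP1, SEP2, SEP3 and SEP4 encode cofactors with overlapping roles that bring the other MADS proteins together. SEP2 (AT3G02310, chromosome 3) had 16.1 and 22.2 adjusted counts for the wild type, with hda19 at 11.3 and 3.39 and hdip1/2/3 at 4.26 and 0.06, from 16 and 22, 11 and 4, and 4 and 0 reads. All 4 mutant libraries were below both wild-type libraries. The log2 fold change was -3.08 in hdip1/2/3 (standard error 0.88, unadjusted P = 0.00864, limma-trend adjusted P = 0.0699) and -1.44 in hda19 (standard error 0.88, unadjusted P = 0.141). The call in hdip1/2/3 was lost without hdip1/2/3 replicate 2 (-1.92) and without wild-type replicate 1 (-3.30) or 2 (-2.85), and without hdip1/2/3 replicate 1 the value was -4.23 and still called. With a pseudocount of 5 the value in hda19 was -1.04 and was called.

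SEP1 (AT5G15800, chromosome 5), the closest member to SEP2 in its MADS box, had wild-type adjusted counts of 20.1 and 29.3, against 57.3 and 4.69 for hda19 and 22.6 and 11.6 for hdip1/2/3. It overlapped the wild type in both mutants, and its hda19 libraries were farther apart on the log2(value + 1) scale than those of any other member. Its log2 fold changes were -0.47 in hda19 and -0.56 in hdip1/2/3 with a standard error of 0.99. Without hda19 replicate 1 the value in hda19 was -2.15 and was called, and without replicate 2 it was 1.21 and was not. SEP3 (AT1G24260, chromosome 1) had adjusted counts of 31.2 and 17.2 (wild type), 68.7 and 15.3 (hda19) and 46.6 and 41.9 (hdip1/2/3). Both hdip1/2/3 libraries were above the wild type, at a log2 fold change of 0.90 (standard error 0.68, limma-trend unadjusted P = 0.221). In hda19 SEP3 had a value of 0.48, which was -0.57 without replicate 1 and 1.52, and called, without replicate 2. SEP4 (AT2G03710, chromosome 2) had 750.5 and 758 adjusted counts for the wild type, with hda19 at 723 and 619.7 and hdip1/2/3 at 775 and 659.9. Its log2 fold changes of -0.17 and -0.08, each with a standard error of 0.15, were the smallest changes among the members in both mutants.

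**Figure D3:**
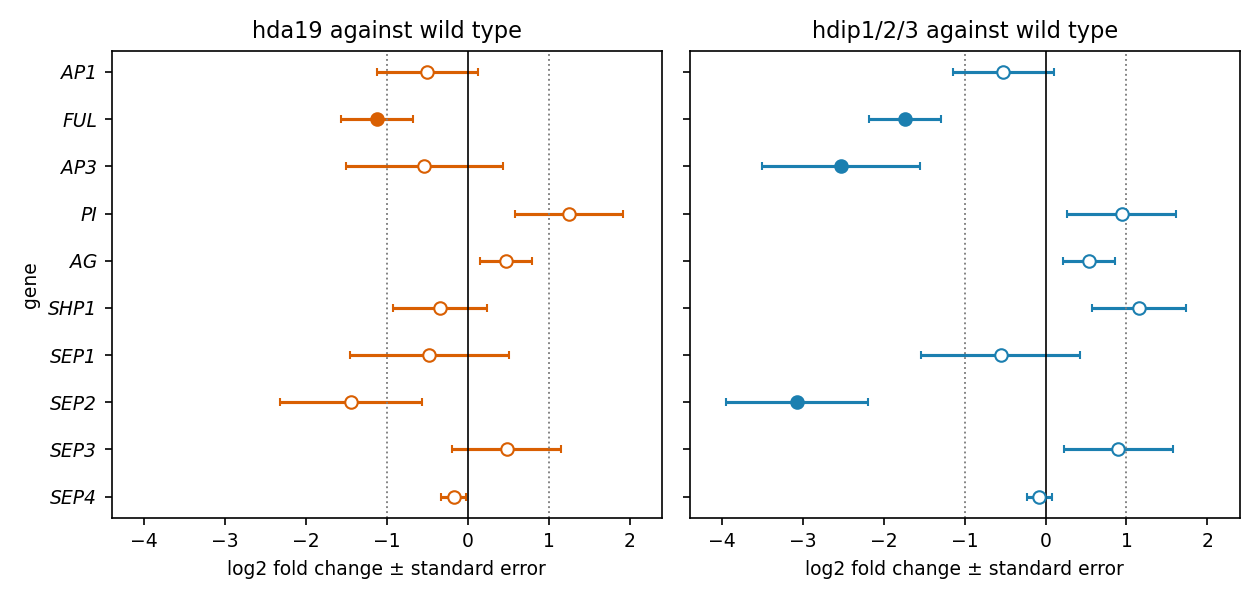
Log2 fold change on the log2(adjusted count + 1) scale, with bars for the standard error from limma-trend, for the 10 members in hda19 (left, orange) and hdip1/2/3 (right, blue) against the wild type, with filled points for members past the call rule and dotted lines at 1 and -1. FUL is filled in both panels, AP3 and SEP2 in hdip1/2/3 only, and no member is filled on the higher side.

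By order of the libraries alone, 2 members were above both wild-type libraries in hda19 and 3 below, where 23.7% and 24.1% of tested genes were so, and in hdip1/2/3 4 were above and 4 below, where 30.7% and 31.3% of tested genes were so. In the direct contrast of the mutants, 1 of 10 members was called, SHP1, where 3.63% of all tested genes were called, 1.14% lower and 2.49% higher in hda19. SHP1 was lower in hda19 than in hdip1/2/3 by a log2 fold change of -1.50 (standard error 0.58, unadjusted P = 0.0344, limma-trend adjusted P = 0.206). The call was lost without hda19 replicate 2 (-1.11), without hdip1/2/3 replicate 1 (-1.53) or 2 (-1.47), and, at -1.50, with no filter or with a mean of at least 10 required. AP3 and SEP2, called in hdip1/2/3 only, had log2 fold changes of 1.99 (standard error 0.98, limma-trend unadjusted P = 0.0766) and 1.63 (standard error 0.88, limma-trend unadjusted P = 0.102) for hda19 over hdip1/2/3, so a difference between the mutants was not shown for either. AP3 passed the call rule in this contrast when the trend of fold change with transcript length was removed (2.16, unadjusted P = 0.0398 by limma-trend), a setting chosen after seeing the data. With a library left out, other members passed the rule in this contrast, FUL (1.22) and SEP1 (1.76) without hda19 replicate 2, SEP3 (-1.47) without hda19 replicate 1, and AP3 (3.54) and SEP2 (2.79) without hdip1/2/3 replicate 1. No gene of the 23685 passed an adjusted P of 0.05 in this contrast by limma-trend, whereas 21.9% had an unadjusted P under 0.05, and limma-voom also gave 0.

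The 2 libraries of a mutant differed for several members. In hda19, replicate 1 was above replicate 2 for all 10 members on the log2(adjusted count + 1) scale, and for 6 of them, AP1, FUL, PI, SEP1, SEP2 and SEP3, by more than 1, a gap that 5.15% of all tested genes showed in that direction. The gap was 3.36 for SEP1, 2.09 for SEP3, 1.90 for AP1, 1.56 for PI, 1.48 for SEP2 and 1.19 for FUL, while AG was level at 0.01. Without SEP4, the members summed to adjusted counts of 441 in hda19 replicate 1 and 182 in replicate 2, against 336 and 346 in the wild type and 268 and 252 in hdip1/2/3. In hdip1/2/3, AP3 (3.09), SEP2 (2.31) and PI (1.48) were higher in replicate 1 by more than 1, where 6.93% of tested genes were. LFY, which turns on AP1 and AG in floral meristems, was at 21.6 and 15.9 in the 2 hda19 libraries. The shoot meristem markers summed to 4433 and 4521 there. The 7 other floral MADS-box genes summed to 28.6 and 5.15, from 28 and 6 reads, with AGL13 going the other way at 0.01 and 2.73. The anther and tapetum markers summed to 388 and 482, mostly from PKSA (147 and 191), TKPR1 (168 and 193) and LAP3 (56.6 and 73.1). Whether the libraries held unequal amounts of floral or meristem tissue was not tested.

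**Figure D4:**
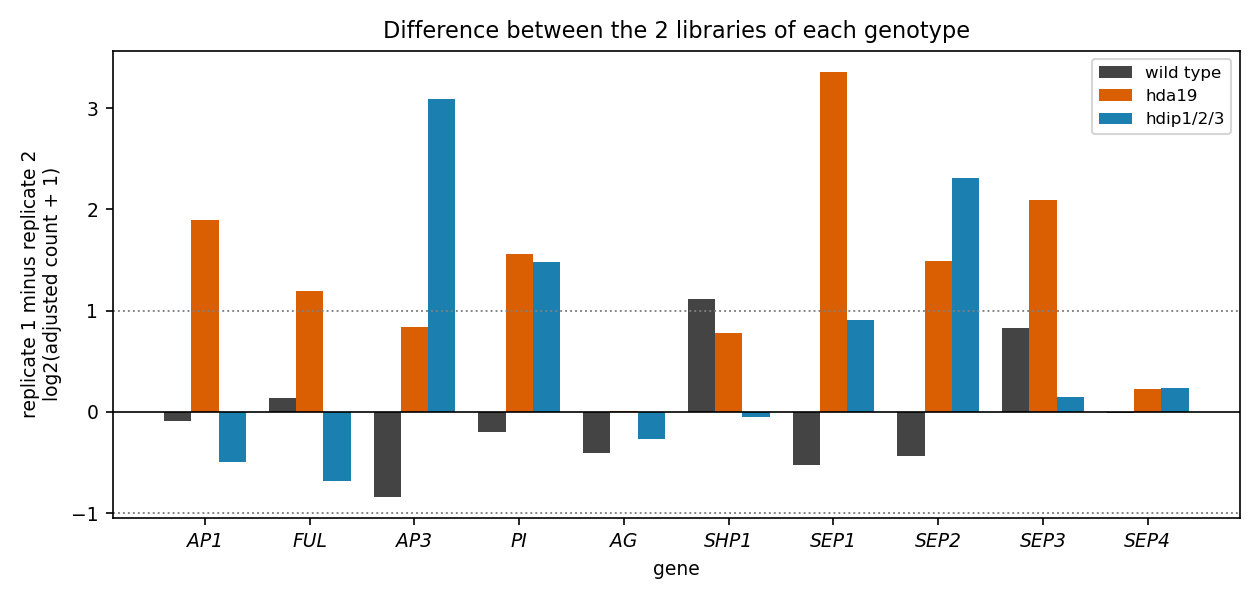
Replicate 1 minus replicate 2 on the log2(adjusted count + 1) scale for each member, with wild type in grey, hda19 in orange and hdip1/2/3 in blue, bars from 0 and dotted lines at 1 and -1. Every hda19 bar is at or above 0 and 6 pass 1, with SEP1 at 3.36, while AP3 reaches 3.09 and SEP2 2.31 in hdip1/2/3.

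The regulators that act before the organ identity genes were described from a list of 16 floral transition and meristem identity genes. In hda19, 2 of 16 were called lower and none higher, where 2.09% of all tested genes were called lower and 4.65% higher. In hdip1/2/3, 3 of 16 were called lower and none higher, where 4.07% of all tested genes were called lower and 4.92% higher. The median log2 fold change of the list was -0.16 in hda19 and -0.75 in hdip1/2/3, beside a median of 0 over all tested genes. FT, the leaf-made signal that induces flowering, had wild-type adjusted counts of 79.5 and 144, against 36.0 and 35.6 for hda19 and 30.6 and 42.7 for hdip1/2/3. All 4 mutant libraries were below both wild-type libraries, at log2 fold changes of -1.55 and -1.54, each with a standard error of 0.40 and limma-trend adjusted P of 0.0912 and 0.0568. The call of FT was lost without hda19 replicate 2 in hda19 (-1.54) and without hdip1/2/3 replicate 1 in hdip1/2/3 (-1.30). TSF, the paralog of FT, had 10 and 21 wild-type reads, against 0 and 1 for hda19 and 0 and 0 for hdip1/2/3. In hdip1/2/3 it was at least 4.71-fold lower, set against a floor of 3 reads per library, and in hda19 its share of reads was at a ratio of 0.0324 to that of the wild type, with an exact 95% binomial counting interval of 0.000795 to 0.194. The limma-trend adjusted P of TSF was 0.049 in hda19 and 0.0257 in hdip1/2/3. TSF stayed called in both mutants whichever library was left out.

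FD, the partner of FT at the shoot apex, was called lower in hdip1/2/3 alone, with adjusted counts of 99.6 and 75.9 (wild type), 99.7 and 61.0 (hda19) and 29.5 and 46.0 (hdip1/2/3). Its log2 fold change was -1.22 in hdip1/2/3 (standard error 0.39, limma-trend adjusted P = 0.0887), and the direct contrast of hda19 over hdip1/2/3 was 1.06 (unadjusted P = 0.0275, limma-trend adjusted P = 0.196). The call of FD in hdip1/2/3 was lost without hdip1/2/3 replicate 1 (-0.90) and without wild-type replicate 1 (-1.02) or 2 (-1.41). The call of FD in the direct contrast was lost without hda19 replicate 1 (0.71), without hdip1/2/3 replicate 1 (0.75) and, at 1.06, without wild-type replicate 1 or 2. LFY had 4.04 and 17.2 adjusted counts for the wild type, with hda19 at 21.6 and 15.9 and hdip1/2/3 at 6.49 and 4.58. It overlapped the wild type in both mutants and was higher in hda19 than in hdip1/2/3 by a log2 fold change of 1.60 (unadjusted P = 0.0495, limma-trend adjusted P = 0.228). That call was lost without any 1 of the 4 mutant libraries (1.38 to 1.81), and LFY was called higher in hda19 without wild-type replicate 2 (1.95) and lower in hdip1/2/3 without wild-type replicate 1 (-1.49). SOC1, the MADS-box gene that integrates flowering signals, was high in all libraries, at 862 and 1059 adjusted counts for the wild type, 911 and 625 for hda19 and 760.4 and 934 for hdip1/2/3, and its log2 fold changes were -0.34 and -0.18, which did not pass the test. FLC, a MADS-box repressor of flowering, had 11 and 11 wild-type reads, 0 and 10 for hda19 and 1 and 6 for hdip1/2/3. All 4 mutant libraries were below both wild-type libraries, hda19 replicate 2 by a small margin. The log2 fold changes of FLC were -1.9 and -1.57, each with a standard error of 1.11, and did not pass the test in either mutant. Without hda19 replicate 2 the value of FLC in hda19 was -3.55 and was called.

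**Figure D5:**
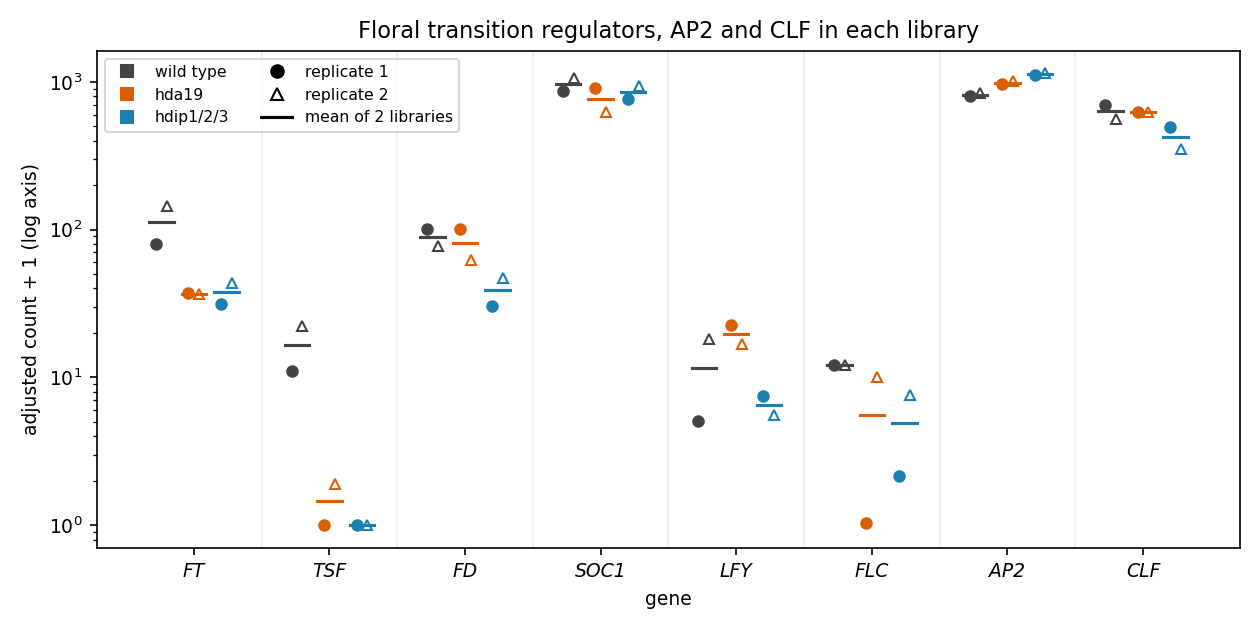
Adjusted count plus 1 (log axis) of 6 floral transition regulators, AP2 and CLF in the 6 libraries, with the colours and marks for genotypes and replicates given in its key and a bar at the mean of the 2 libraries. FT, TSF and FLC lie below both wild-type libraries in all 4 mutant libraries, FLC by a small margin in hda19 replicate 2. FD lies below them in both hdip1/2/3 libraries and in hda19 replicate 2 but not replicate 1, and SOC1 overlaps between the genotypes.

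Of 16 genes that repress the floral organ identity genes, none was called lower in hda19 and 1 was called higher. In hdip1/2/3, 2 of 16 were called lower and none higher. Of all tested genes, 2.09% were called lower and 4.65% higher in hda19, and 4.07% lower and 4.92% higher in hdip1/2/3. The median log2 fold change of the 16 repressors was 0.01 in hda19 and -0.28 in hdip1/2/3. These medians were not recomputed with the trend of fold change on transcript length removed, a setting chosen after seeing the data. In that setting LUG (3595 nt) moved from -0.72 to -0.32 in hdip1/2/3, and SUP (1117 nt) from -1.17 to -1.36. RBE, a petal gene that restricts AG, was the gene called higher in hda19, at 10 and 13 reads against 4 and 2 in the wild type (log2 fold change 1.61, limma-trend adjusted P = 0.189). Without hda19 replicate 2 this call of RBE was lost (1.53), and without wild-type replicate 1 RBE was also called higher in hdip1/2/3 (1.41). CLF, a Polycomb methyltransferase that keeps AG silent in leaves, had wild-type adjusted counts of 699 and 559, against 625 and 626 for hda19 and 494 and 352 for hdip1/2/3. Its log2 fold change was 0.00 in hda19 and -0.58 in hdip1/2/3 (unadjusted P = 0.0225, limma-trend adjusted P = 0.107), short of the fold limit. With the trend of fold change on transcript length removed, CLF (3456 nt) was at -0.21 in hdip1/2/3 (limma-trend unadjusted P = 0.179). Its paralog SWN had a log2 fold change of -1.02 in hdip1/2/3 (limma-trend adjusted P = 0.098), and EMF1, a Polycomb-associated repressor of flowering, one of -1.21 (limma-trend adjusted P = 0.0429). AP2, the A-function gene outside the MADS-box family, had adjusted counts of 794 and 836 (wild type), 959.5 and 1015 (hda19) and 1116 and 1139 (hdip1/2/3). Its libraries were above the wild type in both mutants, at log2 fold changes of 0.28 and 0.47, short of the fold limit.

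LFY and UFO were also among 9 activators of the organ identity genes. Of the 8 of these that were tested, none was called in hda19, where 6.74% of all tested genes were called. In hdip1/2/3, 2 of the 8 were called lower and none higher, where 4.07% of all tested genes were called lower and 4.92% higher. The 2 called lower were SYD and BRM, chromatin remodelling ATPases that act on AG, AP3 and other floral genes, at log2 fold changes of -1.57 and -1.14. Genes called lower in hdip1/2/3 were long, with a median transcript of 2194 nt against 1615 nt over all tested genes, and the transcripts of EMF1, SWN, SYD and BRM had 4377, 3354, 11033 and 7563 nt. With the trend of fold change on transcript length removed, a setting chosen after seeing the data, none of these 4 genes was called in hdip1/2/3 and their values were -0.70, -0.67, -0.55 and -0.32. Their calls were also lost without hdip1/2/3 replicate 2 or wild-type replicate 1, where EMF1 was at -0.91 and -0.87, SWN at -0.59 and -0.59, SYD at -1.22 and -1.06, and BRM at -0.84 and -0.76, and that of SWN without either hda19 library (-1.02). The transcripts of the members, between 1214 nt for AP3 and 2148 nt for SHP1, were nearer to the median, and FUL, AP3 and SEP2 stayed called in hdip1/2/3 and FUL in hda19 with the trend removed.

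The other 7 floral MADS-box genes, CAL, SHP2, STK, AGL6, AGL13, TT16 and GOA, were nearly silent, and 6 of them stayed under 10 reads in every library while AGL6 reached 12. None of the 6 tested was called in either mutant, where 6.74% of all tested genes were called in hda19 and 8.99% in hdip1/2/3. For the members past the call rule, the genes with the most similar profile over the 6 libraries were sought by the root mean square difference of their centred log2 values. The profile of FUL was nearest to those of BOA, a gene of the circadian clock (0.154), AT1G48740 (0.214) and NADP-ME3, a malic enzyme (0.257). BOA had 33.2 and 31.4 adjusted counts for the wild type, with hda19 at 19.5 and 10.5 and hdip1/2/3 at 8.75 and 12.3. The nearest to AP3 were PAB6 (0.368), AT2G45780 (0.381) and AT5G42490 (0.398), and the nearest to SEP2 were AT5G42490 (0.258), AT5G59190 (0.322) and PS2 (0.431). In hdip1/2/3 replicate 2, where AP3 and SEP2 had 0 reads, PAB6, AT2G45780, AT5G42490 and AT5G59190 had adjusted counts of 0.03 to 0.11. PS2 was at 2.69 there. The nearest to SHP1 were ENODL6 (0.173), AT5G28420 (0.201) and AT3G04410 (0.231), all with values of at most 4.33 in any library.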

How the data were processed

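Total RNA of 20-day-old seedlings was sequenced for 2 libraries of each of 3 genotypes, which the study's methods call independent biological replicates. Alignment by the authors was to TAIR10 with HISAT2, unique alignments were counted per gene by featureCounts, and the authors deposited 1 table of normalized signal per gene and library, made with edgeR according to the submitters' processing notes. The labels give single-end reads of 50 nt and the study's methods give longer paired reads, so the read layout is not settled here. The deposited values have the form of counts adjusted to a common library size, and whole reads behind all 195288 values were recovered by inverting that adjustment (dispersion 0.02118, tolerance 0.01). Of 20829 values of 1 to 20 reads, 59.2% were even, so single reads may not be independent molecules, and intervals and floors cover counting error only.

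Deposited values were tested as log2(value + 1) with limma 3.58.1 (limma-trend, genotype as the term, all 6 libraries in 1 fit, R 4.3.3) over the 23685 genes whose mean reached 1 in any genotype. The call rule, which asks for a log2 change past 1 in size together with unadjusted P under 0.05, follows the study's methods, and adjusted P values are Benjamini-Hochberg over all tested genes. Lengths are those of the longest transcript in RefSeq TAIR10.1, in which all 32548 gene identifiers were found. The scripts were tested on simulated data. The members and gene lists were chosen with earlier results of these data known. All 10 members were named, and so were other listed genes past the call rule in either mutant, LFY, SOC1, FT, FLC, AP2, CLF and SHP2 whatever their values, and the 3 genes with the nearest profile for members past the rule. Alternatives were other pseudocounts (0.1 and 5), no filter or a mean of at least 10, median-ratio scaling, a fit of each pair of genotypes, a replicate term, limma-voom on the recovered reads, each library left out, an adjusted P threshold and, chosen after seeing the data, removal of the lowess trend (span 0.3) of fold change on transcript length.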

Additional observations from a re-analysis of the deposited data

How the results depend on the processing

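All values below are from the alternatives described under the processing. For the members in hda19, the count called was 1 with the main settings, 2 with a pseudocount of 5, 0 with no filter on low values, with the pair of genotypes alone or with an adjusted P under 0.05 in place of the call rule, and between 0 and 3 with a library left out. In hdip1/2/3 the count was 3, and it was 0 with an adjusted P under 0.05 and between 0 and 2 with a library left out. Only FUL and SEP2 were called there with a pseudocount of 0.1, with no filter on low values or with the pair of genotypes alone. The count of members above background in all 3 genotypes was 6, 8 with at least 3 reads, and 1 with at least 50 reads or with at least 1 RPKM. Over all genes, 673 were called in hda19 with an adjusted P under 0.05 against 1596, and 0 against 859 in the contrast of the mutants, which ranged from 751 to 1652 with a library left out. In hdip1/2/3 against the wild type, the genes called numbered 2130 and between 1670 and 2833 with a library left out.

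Of 270 log2 fold changes of members over the other settings, 260 kept their direction and side of the call rule, and of 180 with a library left out, 136 did. With limma-voom, AP1 was at -0.0103 in hda19 over hdip1/2/3 in place of 0.0255. With a library left out, log2 fold changes against the wild type in hda19 changed sign for AP1 (-1.45 to 0.45), SEP1 (-2.15 to 1.21), SEP3 (-0.57 to 1.52) and SHP1 (-0.90 to 0.21), and in hdip1/2/3 for SEP4 (-0.19 to 0.0400). In the contrast of hda19 over hdip1/2/3 they did so for AP1 (-0.92 to 0.97), AG (-0.20 to 0.0686), PI (-0.47 to 1.09), SEP1 (-1.60 to 1.76), SEP3 (-1.47 to 0.62) and SEP4 (-0.21 to 0.0204). Where a call was lost only because a library was left out, fewer libraries entered the test.

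The correlations of replicate differences over genes were -0.0781 (wild type and hda19), 0.128 (wild type and hdip1/2/3) and -0.0749 (hda19 and hdip1/2/3). They cannot show whether libraries of the same replicate number were handled together, and the main fit did not pair them. With the replicate block, 1548 genes were called in hda19, 2085 in hdip1/2/3 and 847 in their contrast, and the called members were the same as without it.

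Most members had under 100 reads per library, and the smallest change detectable at this depth was not tested.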

Other observations

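Genes that act after the organ identity genes were mostly silent, with 8 of 14 listed genes under 10 reads in every library. IND, which patterns the opening margins of the fruit, had 6 and 8 wild-type reads and 0 in all 4 mutant libraries, at least 2.46-fold lower in hda19 and at least 2.13-fold lower in hdip1/2/3 against a floor of 3 reads per library (limma-trend adjusted P of 0.0649 and 0.0439). JAG, which promotes growth of petals and other lateral organs, had wild-type adjusted counts of 26.2 and 37.4, against 39.1 and 36.4 for hda19 and 13.1 and 13.6 for hdip1/2/3, and was called lower in hdip1/2/3 at a log2 fold change of -1.18 (limma-trend adjusted P = 0.0994). That call of JAG was lost without wild-type replicate 2 (-0.93). HEC1, a gene of carpel development, was called higher in hdip1/2/3, at 17 and 13 reads against 4 and 6 in the wild type (log2 fold change 1.55, limma-trend adjusted P = 0.0894). The median log2 fold change of the 11 tested genes of this list was 0.56 in hda19 and 0.28 in hdip1/2/3, and both medians were the same with IND set at its bound.

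Among 13 anther and tapetum markers, PKSB had 4 and 7 wild-type reads, 6 and 12 for hda19 and 0 in both hdip1/2/3 libraries, at least 1.67-fold lower there against the same floor (limma-trend adjusted P = 0.0486), and CYP704B1 had 2 and 3 reads in hda19 and 0 elsewhere, called higher in hda19 at a level no higher than the floor. PKSA, TKPR1 and LAP3 had at least 10 reads in every library. Of 6 mature pollen markers, VGD1 and ACT4 were called lower in hda19. VGD1 had 2 and 35 wild-type reads and 0 in both hda19 libraries, at a log2 fold change of -3.39 (limma-trend adjusted P = 0.168). Its value was -5.18 without wild-type replicate 1 and -1.60 without wild-type replicate 2. ACT4 was at a log2 fold change of -1.41 in hda19 (limma-trend adjusted P = 0.275). TUA1, with at least 1501 reads, was the one pollen marker at 10 reads or more in every library. The call of ACT4 held only without hda19 replicate 2 (-1.98) and was lost without any 1 of the other 5 libraries (-0.83 to -1.71). The 13 anther and tapetum markers summed to adjusted counts of 278 to 533 per library, mostly from PKSA, TKPR1 and LAP3.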
